A study of Rattus norvegicus with 31 samples.

Results

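The 42 genes described here code for proteins that sense DNA damage, signal it to the cell cycle or repair it. They were chosen by name from pathways of DNA damage signalling and repair, and every gene of the count table whose symbol is on that list was taken, whatever its level. A row was found for 39 of the 42 genes, out of 26312 genes in the table, and all 39 were among the 19904 genes tested. The other 3 were Fancm and Ddias, which the table lists under older symbols and which are given apart, and Rad54l, for which no row was found. Brca1, Chek1, Atr, Mdc1, Mcph1 and H2afx belong to a network that the study drew from these same livers, so their direction with clothianidin is not independent evidence.

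A break in DNA is recognised by the MRE11-RAD50-NBN complex and by the kinases ATM and ATR. ATR acts through TOPBP1 and claspin (Clspn) on the checkpoint kinase CHEK1, and ATM acts on CHEK2. Phosphorylated histone H2AX (H2afx) recruits MDC1 around the break. Resected ends are then repaired by homologous recombination with BRCA1, BARD1, PALB2 and BRCA2, whereas cross-links need the Fanconi anaemia proteins. Mismatch, base excision and nucleotide excision repair act on single bases or short stretches, and MGMT removes alkyl groups directly. Many of these genes are transcribed mainly while cells copy their DNA, and in adult liver few hepatocytes divide at any time.

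Total RNA was sequenced from the livers of 31 young adult female Wistar rats (Crl:WI), each an independent animal gavaged daily for 28 days in the same carboxymethyl-cellulose vehicle. The 8 controls received the vehicle alone. Thiacloprid (THI) and clothianidin (CTD) are neonicotinoid insecticides and imazalil (IMZ) is an azole fungicide. Daily doses, in mg per kg of body weight, were 108 for THI (4 rats), 93 for IMZ (4 rats) and 288 for CTD (3 rats). Each mixture went to 4 rats, and these combined 54 THI with 46 IMZ, 54 THI with 134 CTD, and 46 IMZ with 135 CTD. The study marks the CTD group as having lost animals in moribund condition, and whether that bears on the values was not tested. Library totals ran from 31.8 to 101 M counts. Controls were sequenced more deeply (median 60.5 M) than treated rats (median 40.2 M). All 8 hepatocyte markers examined were measured in every group, and their summed level ran from 187000 to 249000 CPM (the count per M counts of the library) in the controls and from 191000 to 212000 CPM in CTD, where 1 of the 8, Ass1, was lower (LFC -0.58).

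All 6 treatments were compared with the same 8 controls. Of the 39 members, 14 rose and none fell with CTD (edgeR quasi-likelihood test, adjusted p under 0.05 over all genes tested). THI + CTD raised 7 members, IMZ + CTD raised 4 and THI + IMZ raised 1, and none fell in any mixture. THI and IMZ changed 0 members by edgeR, with 8 and 7 members at an unadjusted p under 0.05, and DESeq2 called 0 with THI and 1 with IMZ. The share of all genes at that unadjusted p was not determined, so counts at this level have no background here or below. Over all genes tested, the share called higher was 6.62% with CTD, 2.67% with THI + CTD, 1.0% with IMZ + CTD and 0.849% with THI + IMZ. The share called either way was 0.543% with THI, 0.251% with IMZ, 12.7% with CTD, 1.18% with THI + IMZ, 4.39% with THI + CTD and 1.46% with IMZ + CTD. With the stricter low-count filter filterByExpr, 14 of 38 members rose and 1 fell with CTD, while 10.9% of the 13870 genes then tested were higher. The median log2 fold change (LFC) of the 39 members was 0.48 with CTD, 0.29 with THI + CTD, 0.30 with IMZ + CTD, 0.10 with THI + IMZ, 0.09 with IMZ and -0.09 with THI. The medians over all genes were -0.07, -0.03, -0.03, -0.02, -0.02 and -0.01 in the same order. Part of the CTD result rests on a single animal, CTD rat 1, without which 7 of the 14 calls remained.

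**Figure D1:**
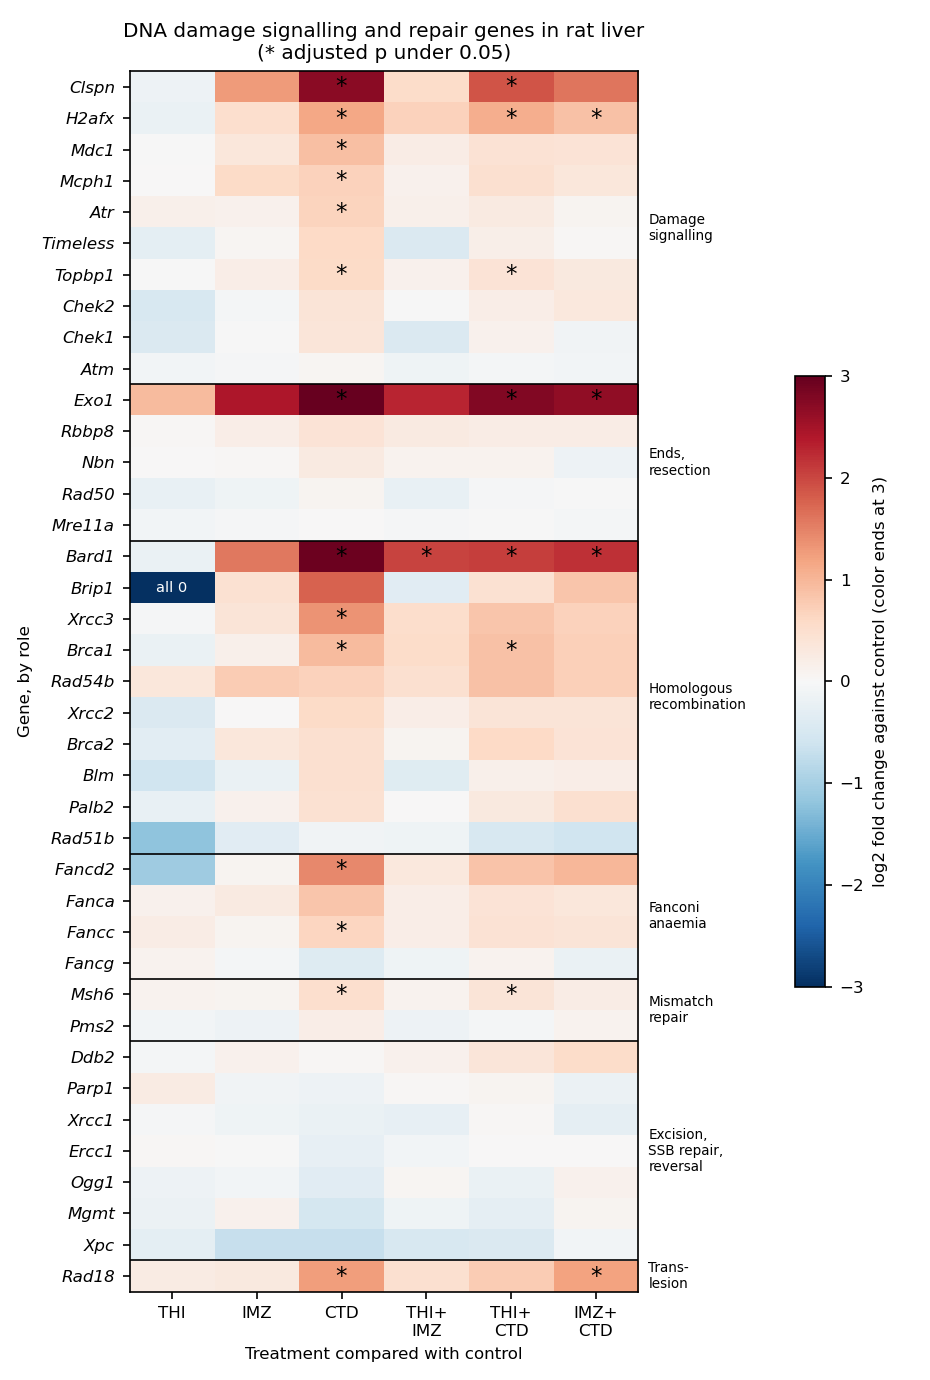
LFC of the 39 members (rows, ordered by role and by their LFC with CTD) in the 6 treatments against control (columns). Stars mark an adjusted p under 0.05, and the cell marked all 0 belongs to Brip1, which had 0 counts in all 4 THI libraries. The stars fall in the CTD column and in the mixtures, and none is in the excision repair rows.

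Among the 10 damage signalling genes, 6 rose with CTD and all 10 had a positive LFC, with a median of 0.63. The kinase gene Atr, which starts the response to stalled replication, measured 19, 15.6 and 14.9 CPM in the 3 CTD rats and 9.50 to 12.6 CPM in the controls, with a median of 10 CPM. The groups did not overlap, and Atr was 1.58-fold higher (LFC 0.66 ± 0.11 SE, adjusted p = 6.1e-05 by edgeR). Mdc1, the adaptor that binds phosphorylated H2AX, measured 12.6, 6.54 and 9.78 CPM against 4.40 to 5.57 CPM in the controls (median 5.20 CPM). Again every CTD rat lay above every control, with an LFC of 0.91 ± 0.17 (adjusted p = 0.00029 by edgeR). H2afx itself, the histone variant that marks damaged chromatin, measured 22.5, 10 and 7.08 CPM, and the controls 3.87 to 6.97 CPM with a median of 6.02 CPM. Its LFC was 1.16 ± 0.24 (adjusted p = 0.00099 by edgeR), and CTD rat 3 cleared the highest control only narrowly.

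Topbp1 and Clspn, which couple ATR to CHEK1, rose together with CTD. Topbp1 measured 34.6, 30.9 and 21.7 CPM, against 15.9 to 23.5 CPM in the controls with a median of 19.6 CPM, so that CTD rat 3 lay within the control range (LFC 0.58 ± 0.11, adjusted p = 0.00051 by edgeR). Clspn was scarce, at 0.0367 to 0.304 CPM in the controls (median 0.142 CPM), and measured 2.18, 0.439 and 0.646 CPM with CTD (LFC 2.71 ± 0.52, adjusted p = 0.00051 by edgeR). Here all 3 CTD rats lay above all controls, and rat 1 was far above the other two. Mcph1, a chromatin protein of the early response, measured 2.68, 1.14 and 2.09 CPM against 1.03 to 1.5 CPM (control median 1.18 CPM), with an LFC of 0.68 ± 0.22 (adjusted p = 0.038 by edgeR). CTD rat 2 lay within the control range for Mcph1, and this call was lost in 10 of the 38 alternative settings. Chek1, the effector kinase, measured 13.5, 11 and 7.35 CPM against 6.19 to 10.4 CPM (control median 8.0 CPM) and did not pass the test (LFC 0.37 ± 0.21, adjusted p = 0.27 by edgeR). Neither Chek2 (LFC 0.39), Atm (LFC 0.06) nor the fork protection gene Timeless (LFC 0.60) passed the test.

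Of the 5 genes that act on break ends, only Exo1, an exonuclease that resects ends and also serves mismatch repair, rose with CTD. It measured 1.09, 0.155 and 0.677 CPM, against 0 to 0.140 CPM in the controls with a median of 0.0472 CPM. All 3 CTD rats were above all controls, rat 2 by little, and the LFC was 3.34 ± 0.65 (adjusted p = 0.00061 by edgeR). With 0 to 42 counts per library Exo1 was measured from few reads. The LFC of Mre11a, Rad50 and Nbn, the subunits of the complex that binds the ends, was 0.01, 0.09 and 0.27, with 95% intervals of -0.18 to 0.20, -0.11 to 0.29 and 0.00 to 0.55. Rbbp8, the cofactor of that complex in resection, had an LFC of 0.41 and missed the threshold (adjusted p = 0.11 by edgeR).

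Of the 10 homologous recombination genes measured, 3 rose with CTD and 9 had a positive LFC, with a median of 0.64. Bard1, the obligate partner of BRCA1, was the only member called by edgeR in all 4 treatments other than THI and IMZ alone. It measured 3.95, 1.29 and 1.35 CPM with CTD, against 0.0302 to 0.500 CPM in the controls with a median of 0.244 CPM. The groups did not overlap, and the LFC was 2.94 ± 0.51, or 7.70-fold (adjusted p = 0.00015 by edgeR). Brca1 measured 9.49, 3.72 and 3.63 CPM against 1.72 to 4.10 CPM (control median 2.85 CPM). Only CTD rat 1 lay outside the control range, the LFC was 0.94 ± 0.27 (adjusted p = 0.019 by edgeR), and without that rat it was 0.33 (adjusted p = 0.57 by edgeR). Xrcc3, which acts in strand exchange, also rose (LFC 1.35 ± 0.40, adjusted p = 0.021 by edgeR), from 4 to 48 counts per library. The other 7 measured genes did not pass: Brip1 (LFC 1.77), Rad54b (0.70), Xrcc2 (0.58), Brca2 (0.48), Blm (0.47), Palb2 (0.45) and Rad51b (-0.10). Rad51b, which also acts in recombination, measured 0.702, 0.672 and 0.277 CPM with CTD and 0.398 to 0.898 CPM in the controls (median 0.564 CPM), so the groups overlapped. The helicase gene Brip1 was close to undetected, at 0.338, 0 and 0.0615 CPM with CTD and 0 to 0.110 CPM in the controls (median 0.0271 CPM).

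Fancd2, which the Fanconi core complex ubiquitinates at cross-links, measured 6.27, 1.91 and 2.25 CPM with CTD and 0.878 to 1.76 CPM in the controls (median 1.20 CPM). The groups did not overlap, and Fancd2 was 2.69-fold higher (LFC 1.43 ± 0.34, adjusted p = 0.0039 by edgeR). Of the core complex, Fancc rose (LFC 0.65 ± 0.19, adjusted p = 0.018 by edgeR), whereas Fanca (0.83) and Fancg (-0.38) did not pass. Msh6, a subunit of the main mismatch recognition dimer, measured 26.3, 23.8 and 20.7 CPM against 15.0 to 18.2 CPM (control median 16.5 CPM). Its change was small but clear of the control range in all 3 rats (LFC 0.51 ± 0.10, adjusted p = 0.00045 by edgeR). Pms2, of the downstream mismatch complex, had an LFC of 0.21 and did not pass. Rad18, the ubiquitin ligase that calls translesion polymerases to stalled forks, measured 2.03, 0.698 and 0.708 CPM against 0.231 to 0.877 CPM (control median 0.408 CPM). CTD rats 2 and 3 lay within the control range for Rad18 (LFC 1.25 ± 0.33, adjusted p = 0.010 by edgeR).

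Of the 7 genes of excision repair, strand break sealing and direct reversal, 0 passed the test with CTD by edgeR, 4 had an unadjusted p under 0.05, and 6 had a negative LFC (median -0.25). As 12.7% of all genes were called either way, a count of 0 in 7 is near that background, and a difference from the other roles was not tested. DESeq2 called 1 of them, Mgmt. Xpc, which recognises distorted DNA, measured 43.5, 76.3 and 86.5 CPM with CTD. The controls spread from 44.5 to 166 CPM with a median of 123 CPM, so the groups overlapped (LFC -0.70 ± 0.29, adjusted p = 0.12 by edgeR). Mgmt lay at the threshold (LFC -0.52, adjusted p = 0.05 by edgeR), Ogg1, the glycosylase for oxidised guanine, had an LFC of -0.35 and the nuclease gene Ercc1 one of -0.25. The LFC of Xrcc1, Parp1 and Ddb2 was -0.19, -0.15 and 0.04. Over all genes tested, 6.03% were called lower with CTD.

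**Figure D2:**
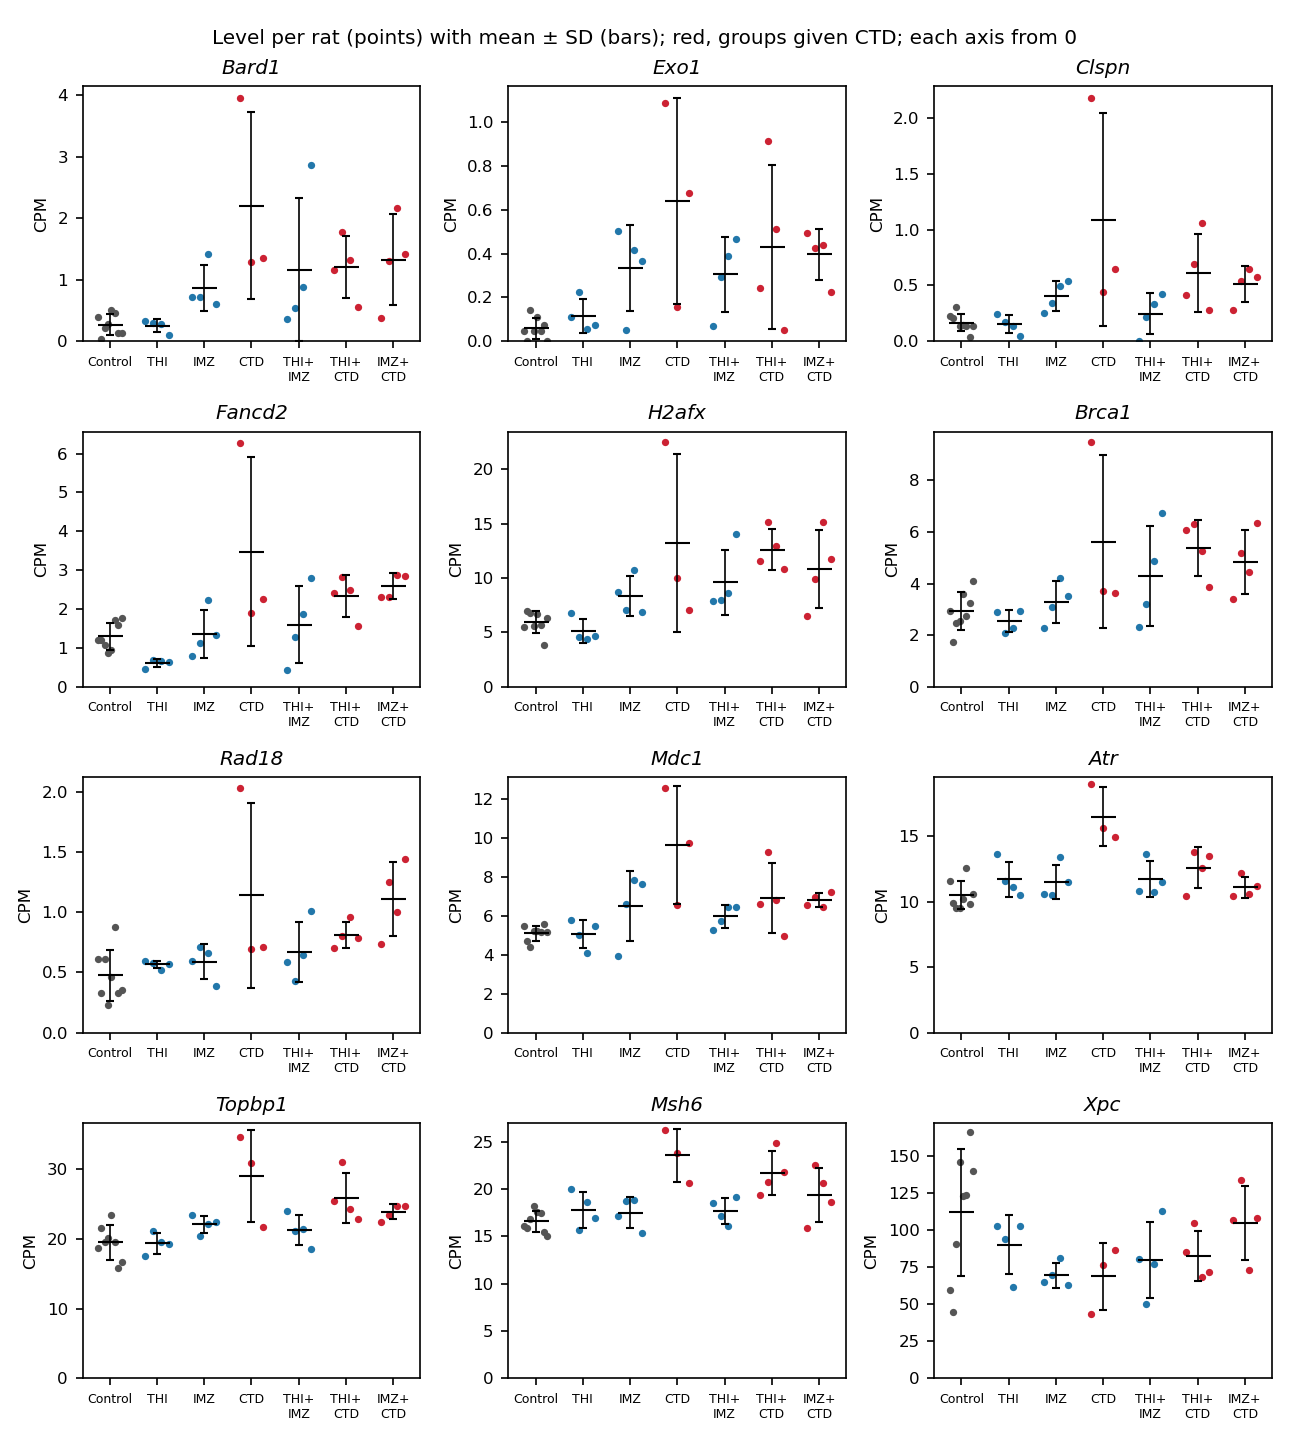
CPM of 12 members in each rat (points), with the mean and SD of each group, in the 7 groups. CTD rat 1 is the highest CTD point in all panels but Xpc, where it is the lowest. In Atr, Msh6, Mdc1, Bard1, Fancd2, Clspn, H2afx and Exo1 the other CTD rats also lie above the 8 controls.

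In 8 members every CTD rat lay above every control, namely Atr, Mdc1, H2afx, Clspn, Exo1, Bard1, Fancd2 and Msh6, whereas 5.33% of all genes tested did so. The same held for 3 members in THI + CTD (H2afx, Bard1 and Msh6, with 2.14% of all genes) and for 3 in IMZ + CTD (Mdc1, Exo1 and Fancd2, with 1.61% of all genes). In IMZ and THI + IMZ 1 member each lay above all controls (Bard1 and H2afx), and in THI 1 lay below them (Fancd2). The share of all genes was not determined for these 3 groups, so these cases cannot be set against a background. CTD rat 1 was the highest of its group in 13 of the 14 called members and in 29 of all 39. When it was left out, Atr (adjusted p = 0.0045), Msh6 (0.016), Bard1 (0.017), Mdc1 (0.023), Exo1 (0.026), Topbp1 (0.028) and Xrcc3 (0.043) were still called by edgeR. Brca1, Clspn, Fancc, Fancd2, H2afx, Mcph1 and Rad18 were not, and the median LFC of the 39 members fell to 0.17. Xrcc3 in turn was lost without CTD rat 3 (adjusted p = 0.20 by edgeR).

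**Figure D3:**
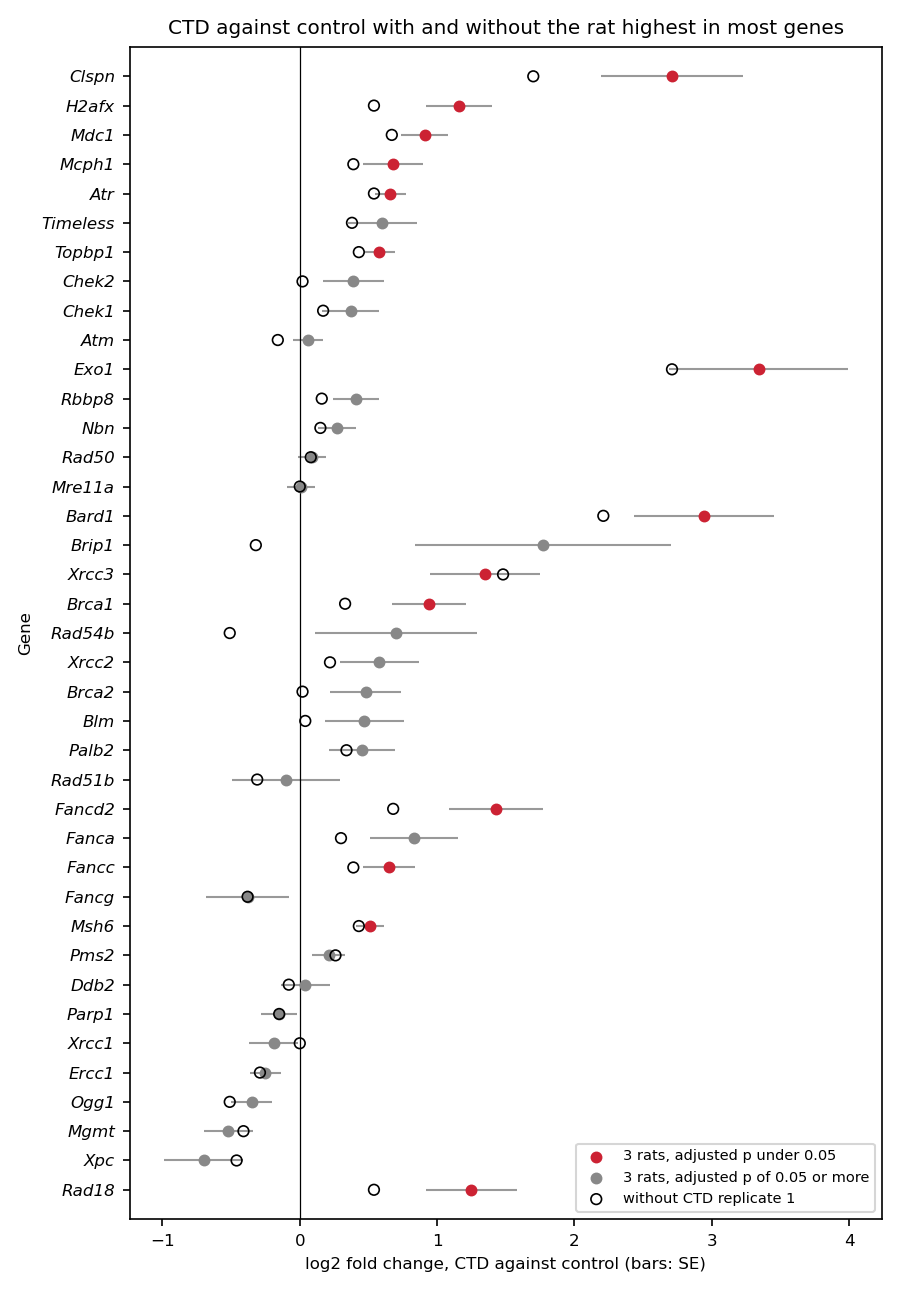
LFC of each member (rows, by role) with CTD against control. Filled points with SE bars use all 3 CTD rats, in red where the adjusted p was under 0.05, and open circles leave out CTD rat 1. Without this rat most values move toward 0, Brca1 from 0.94 to 0.33, Exo1 from 3.34 to 2.71 and Bard1 from 2.94 to 2.21.

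Genes of cell division and DNA replication rose with CTD too, and their medians were highest in CTD rat 1. All 29 cell division genes measured rose with CTD (median LFC 2.94), and 19 of 29 DNA replication genes did (median LFC 0.87). In THI + CTD, IMZ + CTD and THI + IMZ, 13, 5 and 1 of the replication genes rose, and 27, 27 and 17 of the cell division genes. Over all genes tested, 6.62% rose with CTD, and 2.67%, 1.0% and 0.849% with these mixtures in that order. Mki67, a marker of cycling cells, measured 45.2, 15.8 and 10.9 CPM in the CTD rats and 1.74 to 5.40 CPM in the controls, and Top2a, the topoisomerase of dividing cells, 57.8, 18.6 and 16.5 CPM against 1.33 to 5.12 CPM. Rat 1 was thus the highest for these as well. It was also the highest CTD rat in 13 of the 14 called members. The exception, Xrcc3, was highest in CTD rat 3 (1.23 CPM), which had the lowest Mki67 of its group. Xrcc3 had only 22 to 40 counts per library in that group. In IMZ + CTD, Exo1 was highest in rat 1 (0.492 CPM), which had the lowest Mki67 there (6.27 CPM). Exo1 had only 7 to 16 counts per library there, and rats 2 and 3 lay close, at 0.426 and 0.441 CPM. The median over the 39 members was 0.87, 0.21 and 0.17 log2 units above the control mean in the 3 CTD rats, and that of the cell division genes 3.87, 2.27 and 2.05. The part of dividing cells in the members' levels was not tested, and in whole liver a change in the number of such cells cannot be told apart from a change of RNA per cell.

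Of 21 genes that p53 induces after DNA damage, 1 rose and 5 fell with CTD, with a median LFC of -0.08. Over all genes tested, 6.62% were called higher and 6.03% lower with CTD. Cdkn1a, the cell cycle inhibitor, measured 14, 6.72 and 13.2 CPM with CTD and 8.70 to 16.8 CPM in the controls (adjusted p = 0.68 by edgeR). Mdm2, which limits p53, had an LFC of 0.31 (adjusted p = 0.19 by edgeR). Btg2 (LFC -1.40), Sesn2 (-1.17), Sesn1 (-0.58), Plk3 and the scarce Pmaip1 fell, and Rrm2b (0.42), a subunit of ribonucleotide reductase, rose, the last and Plk3 being named after their values were seen. Of the 21 genes, 2 fell with THI, 2 with THI + CTD and 1 rose with THI + IMZ. The shares of all genes called either way were 0.543%, 4.39% and 1.18% in that order. Of 66 further DNA repair genes, 17 rose and 3 fell with CTD, with a median LFC of 0.05. The 3 that fell, named after their values were seen, were Rnf8 (LFC -0.42), Ercc2 (-0.46) and Mus81 (-0.49). A count of 3 lower in 66 is near the 6.03% of all genes called lower. THI + CTD raised 6 and lowered 1 of the 66, and IMZ + CTD raised 4, with 4.39% and 1.46% of all genes called either way. With CTD, genes with small p included Usp1 (LFC 0.64), Ube2t (3.70) and Polq (2.80), of which the first 2 act in the Fanconi pathway and Polq in end joining.

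Markers of other cells also differed with CTD. The 7 red blood cell and precursor markers measured summed to 124 to 150 CPM in the CTD rats and 22.6 to 52.4 CPM in the controls, with Hba1, Hbb and Alas2 higher and Slc4a1 lower. CTD rat 1 was not set apart in this sum. Of the Kupffer cell markers 2 of 7 were lower, of the sinusoidal endothelial markers 2 of 8 were lower, and of the stellate cell markers 1 of 8 was higher, with sums that overlapped between CTD and control in all 3 cell types. The sums of T and NK, B, neutrophil and cholangiocyte markers overlapped between CTD and control, and none of their markers was called. The bearing of these shifts on the members was not tested.

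**Figure D4:**
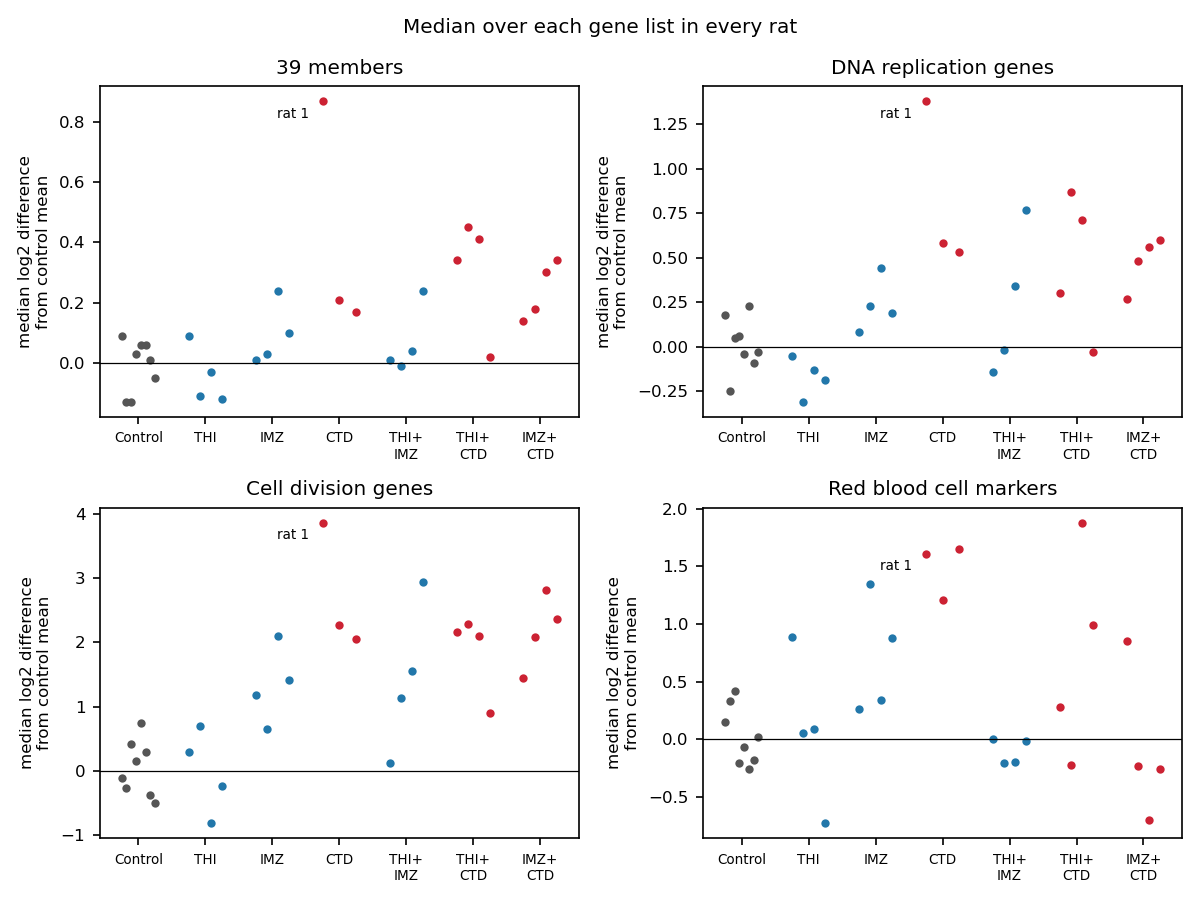
Median log2 difference from the control mean over the 39 members, 29 DNA replication genes, 29 cell division genes and 7 red blood cell markers, for every rat (points) in the 7 groups. CTD rat 1 is highest in the first 3 panels, at 0.87 for the members, but not for the red blood cell markers.

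With THI no member passed the test. Of the members with an unadjusted p under 0.05, 7 were lower and 1 was higher. The share of all genes at that p, in either direction, was not determined. Fancd2 measured 0.458, 0.694, 0.662 and 0.643 CPM, below all 8 controls (LFC -1.06 ± 0.36, adjusted p = 0.30 by edgeR). Rad51b measured 0.162, 0.206, 0.248 and 0.405 CPM, with 3 of the 4 rats below the control range (LFC -1.21 ± 0.39, adjusted p = 0.24 by edgeR). Brip1 had 0 counts in all 4 THI libraries, and with a floor of 3 counts over the group it was at least 1.88-fold lower than the control mean of 0.0335 CPM. These values and the LFC of Chek1 (-0.44), Chek2 (-0.47), Blm (-0.60) and Rad50 (-0.22) did not survive adjustment over all genes. Parp1, which senses strand breaks, had an LFC of 0.24 (adjusted p = 0.56 by edgeR). Cdkn1a fell with THI (LFC -1.49, adjusted p = 0.001 by edgeR), to 3.48, 4.54, 5.18 and 5.07 CPM.

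With IMZ, the members with the smallest p were Exo1, Bard1 and Mcph1, and none passed the test by edgeR. Exo1 measured 0.502, 0.0491, 0.417 and 0.367 CPM, of which 3 lay above all controls (LFC 2.42 ± 0.63, adjusted p = 0.11 by edgeR, and the only member DESeq2 called, with 0.024). Bard1 measured 0.714, 0.711, 1.42 and 0.605 CPM, all above the highest control (LFC 1.59 ± 0.50, adjusted p = 0.26 by edgeR). Mcph1 measured 2.49, 1.59, 1.45 and 1.71 CPM (LFC 0.57 ± 0.20, adjusted p = 0.36 by edgeR). Xpc lay at 62.8 to 81.4 CPM with IMZ, within the control range (LFC -0.68, adjusted p = 0.43 by edgeR). Of the 29 cell division genes, 26 had an unadjusted p under 0.05 with IMZ, all with a positive LFC, but did not pass after adjustment by edgeR. Here too the share of all genes at that unadjusted p was not determined.

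THI + CTD, which held 134 mg per kg of CTD, raised Brca1, H2afx, Bard1, Topbp1, Exo1, Msh6 and Clspn, all of which were also called with CTD. H2afx measured 11.6, 15.1, 12.9 and 10.8 CPM, well clear of the controls (LFC 1.09 ± 0.22, adjusted p = 0.0027 by edgeR). Bard1 measured 1.16, 1.78, 1.32 and 0.557 CPM (LFC 2.08 ± 0.49, adjusted p = 0.010 by edgeR), and Msh6 19.4, 20.8, 24.9 and 21.8 CPM (LFC 0.39 ± 0.09, adjusted p = 0.0078 by edgeR). These 3 genes did not overlap with control. Exo1 (0.241, 0.914, 0.511 and 0.0506 CPM), Clspn (0.410, 0.691, 1.06 and 0.278 CPM), Topbp1 (25.4, 31.1, 24.3 and 22.9 CPM) and Brca1 (6.07, 6.29, 5.26 and 3.87 CPM) overlapped with control through rat 4. This rat was the lowest of its group in 6 of the 7 genes and also had the lowest Mki67, 4.38 CPM against 10.8 to 15.6 CPM in the other 3. Without rat 2, 2 of the 7 calls were left, and without rat 3, 4 were. Brca1 was also lost without rat 1 or without control 2, 3, 4 or 6. Cell markers also moved in THI + CTD, with the Kupffer cell markers Cd163 and Csf1r, the endothelial Kdr and the hepatocyte Serpina1 lower, and the stellate cell Col1a1 and the red blood cell Hbb higher. The red blood cell sum ran from 29.9 to 172 CPM, with Hba1 at 94.3 CPM in rat 3, and the part of these shifts in the members' levels was not tested. Cdkn1a fell (LFC -0.87, adjusted p = 0.027 by edgeR).

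IMZ + CTD raised H2afx, Bard1, Exo1 and Rad18 by edgeR. DESeq2 called 6 members, these and also Clspn and the excision repair gene Ddb2 (LFC 0.54, adjusted p = 0.029 by DESeq2). Rad18 measured 0.738, 1.25, 0.999 and 1.44 CPM, with rat 1 inside the control range (LFC 1.20 ± 0.31, adjusted p = 0.036 by edgeR). Bard1 measured 0.369, 1.31, 2.17 and 1.41 CPM (LFC 2.20 ± 0.50, adjusted p = 0.015 by edgeR), H2afx 6.46, 9.88, 15.1 and 11.7 CPM (LFC 0.87 ± 0.22, adjusted p = 0.037 by edgeR), and Exo1 0.492, 0.426, 0.441 and 0.225 CPM (LFC 2.66 ± 0.64, adjusted p = 0.024 by edgeR). Only Exo1 among them was clear of all controls. Fancd2, at 2.31, 2.30, 2.88 and 2.86 CPM, was also above every control yet missed the threshold (LFC 1.00 ± 0.32, adjusted p = 0.12 by edgeR). Leaving out rat 3 of this mixture left 0 calls by edgeR, and leaving out rat 2 or rat 4 left 1 each. Removal of control 4, 7 or 8 left 2. Exo1 was lost without rat 1, H2afx without control 1 or 6, and Rad18 without control 2 or 5.

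With THI + IMZ only Bard1 passed by edgeR, at 0.351, 0.537, 0.881 and 2.87 CPM (LFC 2.03 ± 0.49, adjusted p = 0.030 by edgeR). Rat 4 set this value, and without it Bard1 had an LFC of 1.05 and was not called. H2afx, at 7.85, 7.95, 8.61 and 14 CPM, was above every control but missed the threshold (LFC 0.70 ± 0.22, adjusted p = 0.14 by edgeR). Exo1 measured 0.0703, 0.295, 0.389 and 0.465 CPM (LFC 2.28, adjusted p = 0.079 by edgeR), and DESeq2 called it too (adjusted p = 0.021 by DESeq2). Rat 4 was likewise the highest of its group in Mki67, with 19.9 CPM against 2.93 to 9.07 CPM. The call of Bard1 was also lost without control 3, 7 or 8. Of the cell markers, the hepatocyte gene Apoa1 alone was called with THI + IMZ (LFC 0.85, higher).

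Each mixture was then compared with what its compounds would add up to, by weighting their LFC with the share of the single dose that the mixture held (0.5 for THI and IMZ and 0.47 for CTD). None of the 39 members differed from that sum by edgeR or by DESeq2 in any of the 3 mixtures, with 4, 5 and 5 members at an unadjusted p under 0.05. Of all genes tested, 0.0151% were called in THI + IMZ, 0.286% in THI + CTD, and in IMZ + CTD 1.16%. Of the 39 members, 25 lay above the sum in THI + IMZ, 34 in THI + CTD and 20 in IMZ + CTD. The median differences were 0.04, 0.14 and 0.00, and those over all genes 0.0, -0.01 and -0.02. The share of all genes above the sum was not determined. Brip1, whose THI value rests on 0 counts, is among the 39. In THI + CTD the smallest p was that of H2afx (difference 0.65, 95% interval 0.21 to 1.09, adjusted p = 0.30 by edgeR). For Bard1 with THI + IMZ the difference was 1.33 (95% interval 0.36 to 2.31, adjusted p = 0.61 by edgeR), in a mixture where rat 4 alone took the LFC of Bard1 from 1.05 to 2.03.

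**Figure D5:**
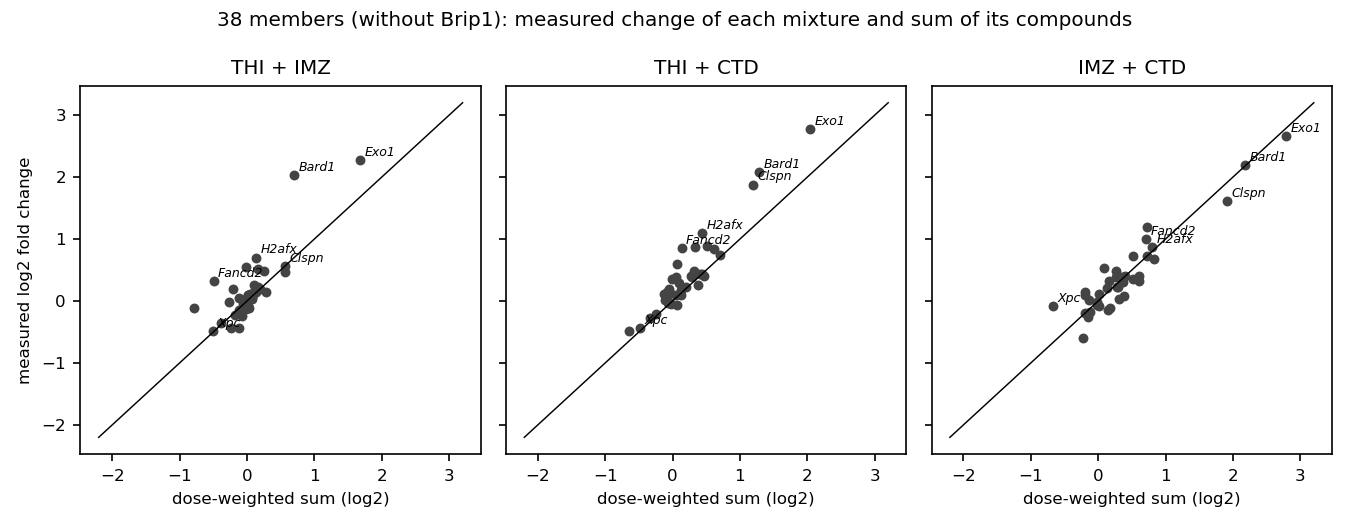
Measured LFC of each mixture (vertical) against the weighted sum of the LFC of its compounds (horizontal) for 38 members, with the line of equality. Brip1 is left out because its THI value rests on 0 counts. Bard1 lies above the line in THI + IMZ and on it in IMZ + CTD, and no member departed from its sum at an adjusted p under 0.05.

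The compounds were also compared directly, at doses that differ. CTD at 288 and THI at 108 mg per kg, both neonicotinoids, differed in 12 members, all higher with CTD, whereas 3.42% of all genes were higher and 6.62% were called in either direction. They were Atr, Mdc1, H2afx, Chek1, Chek2, Topbp1, Clspn, Brca1, Bard1, Brip1, Fancd2 and Msh6. Fancd2 differed most clearly (LFC 2.49 ± 0.42, adjusted p = 0.00028 by edgeR), being low with THI and high with CTD. Chek1 (LFC 0.81) and Chek2 (LFC 0.86) were called here though neither treatment was called against control. Brip1 was at least 7.48-fold higher with CTD, from 0 counts with THI, but this rests on CTD rat 1, since another CTD rat was itself at 0 counts, and without rat 1 the adjusted p was 0.30 by edgeR. Without CTD rat 1, Fancd2 alone stayed called (LFC 1.75, adjusted p = 0.018 by edgeR).

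CTD and IMZ, the latter at 93 mg per kg, differed in Atr (LFC 0.52 ± 0.12, adjusted p = 0.010), Msh6 (0.43 ± 0.11, 0.021) and Fancd2 (1.35 ± 0.40, 0.046), all higher with CTD by edgeR. Over all genes 2.28% were higher and 4.67% were called in either direction. Bard1 (LFC 1.35, 95% interval 0.18 to 2.53) and Exo1 did not pass, so a difference between CTD and IMZ in the genes that changed most was not shown. None of the 3 stayed called without CTD rat 1, 1 stayed without IMZ rat 1 or without IMZ rat 4, and 6 members were called without CTD rat 3, against 2 to 4 without any other single rat. THI + CTD and IMZ + CTD differed in 0 members by edgeR and by DESeq2, with 1 at an unadjusted p under 0.05 and 0.176% of all genes called. The median difference between both mixtures was 0.05.

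The start regions of the called genes were examined for short words that transcription factors of the cell cycle bind. RefSeq promoters of the assembly GRCr8 (250 bases before to 50 after the start) were matched for 34 of the 42 genes. The E2F words TTTGGCGC, TTTCCCGC, TTTCGCGC and TTTGCCGC, on either strand, were found in 9 of these 34 and in 2.25% of all 27457 promoters. They were found in 6 of the 12 matched members that rose with CTD (Bard1, Clspn, Fancc, Fancd2, Msh6 and Topbp1) and in 3 of 19 that did not (Atm, Chek1 and Timeless). This split and those below leave out Fancm, Ddias and Rad54l, which were matched but had no row under their own symbol. None of these held an E2F word, although Fancm and Ddias, under their older symbols, rose with CTD. The CCAAT word was in 7 of 12 and 5 of 19, with 37.7% of all promoters, and the CHR word TTTGAA in 2 of 12 and 4 of 19, with 18.1% of all. The words are short and a match is no measured binding. Shown are the members that passed in at least 2 treatments with the smallest p for CTD, as 280 bases from 250 before the start to 30 bases into the transcript, with capitals for any of these words on either strand. In Bard1 the E2F word starts 205 bases before the start and is flanked by CHR words, in Msh6 it begins 5 bases before it, and in Topbp1 overlapping E2F words of both strands begin 44 and 40 bases before it. In Clspn the word lies 21 bases past the start, whereas Exo1 and H2afx hold CCAAT words but none of E2F.
Bard1, chr9:80143726-80144005, minus strand of GRCr8: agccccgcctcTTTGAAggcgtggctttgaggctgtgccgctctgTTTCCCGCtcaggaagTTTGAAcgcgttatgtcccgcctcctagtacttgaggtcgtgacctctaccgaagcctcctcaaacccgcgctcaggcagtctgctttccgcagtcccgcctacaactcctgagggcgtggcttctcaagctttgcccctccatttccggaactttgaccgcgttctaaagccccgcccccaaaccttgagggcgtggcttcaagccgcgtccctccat
Msh6, chr6:12333476-12333755, minus strand of GRCr8: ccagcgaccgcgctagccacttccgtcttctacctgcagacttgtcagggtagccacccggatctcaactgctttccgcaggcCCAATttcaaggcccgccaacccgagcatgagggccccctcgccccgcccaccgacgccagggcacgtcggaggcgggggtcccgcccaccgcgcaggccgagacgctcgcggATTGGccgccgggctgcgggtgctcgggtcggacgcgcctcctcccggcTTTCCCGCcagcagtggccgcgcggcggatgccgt
Topbp1, chr8:112766541-112766820, plus strand of GRCr8: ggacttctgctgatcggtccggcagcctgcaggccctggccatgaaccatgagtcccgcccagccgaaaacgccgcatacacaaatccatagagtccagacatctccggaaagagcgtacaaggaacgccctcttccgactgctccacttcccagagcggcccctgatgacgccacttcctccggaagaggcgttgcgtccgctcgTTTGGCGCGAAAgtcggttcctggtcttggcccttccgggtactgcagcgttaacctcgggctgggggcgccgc
Clspn, chr5:144134387-144134666, plus strand of GRCr8: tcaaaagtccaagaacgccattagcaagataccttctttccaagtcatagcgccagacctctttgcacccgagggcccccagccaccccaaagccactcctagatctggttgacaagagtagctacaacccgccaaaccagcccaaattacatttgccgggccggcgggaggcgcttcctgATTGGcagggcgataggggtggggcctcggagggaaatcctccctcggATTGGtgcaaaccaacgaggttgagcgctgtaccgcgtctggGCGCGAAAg
Exo1, chr13:90341768-90342047, plus strand of GRCr8: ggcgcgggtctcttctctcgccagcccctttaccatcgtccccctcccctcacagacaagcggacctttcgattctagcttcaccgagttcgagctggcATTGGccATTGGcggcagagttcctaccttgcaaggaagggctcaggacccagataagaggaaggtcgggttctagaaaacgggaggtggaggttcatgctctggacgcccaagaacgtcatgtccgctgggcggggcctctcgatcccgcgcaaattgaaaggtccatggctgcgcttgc
H2afx, chr8:53568468-53568747, plus strand of GRCr8: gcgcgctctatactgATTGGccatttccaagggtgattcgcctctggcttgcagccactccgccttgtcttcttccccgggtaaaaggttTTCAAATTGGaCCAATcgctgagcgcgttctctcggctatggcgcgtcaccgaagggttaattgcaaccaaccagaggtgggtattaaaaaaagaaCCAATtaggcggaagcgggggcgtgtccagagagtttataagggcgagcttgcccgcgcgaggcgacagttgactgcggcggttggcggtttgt

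The genes listed under older symbols moved in the same direction with CTD. Fancm, listed as RGD1307897, a helicase that anchors the Fanconi core complex, measured 4.86, 4.34 and 3.35 CPM against 2.06 to 2.96 CPM in the controls (LFC 0.73 ± 0.17, adjusted p = 0.0044 by edgeR). Ddias, listed as RGD1559690, measured 2.05, 0.646 and 0.400 CPM against 0.0603 to 0.363 CPM (LFC 2.48 ± 0.51, adjusted p = 0.001 by edgeR). For Ddias, CTD rat 1 was far above the other CTD rats, and rat 3, with 13 counts, cleared the highest control only narrowly. In both genes the CTD rats lay above all controls, and neither gene was called in a mixture or with THI or IMZ alone. Whether their calls hold without CTD rat 1 was not determined.

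The precision differed among the members. Over the 33 members with a median of at least 20 counts per library, the coefficient of variation among the 8 controls had a median of 16.6% and ran from 6.79% in Msh6 to 63.7% in Bard1. The other 6, which include Exo1, Clspn, Xrcc3 and Brip1, were measured from fewer counts. In the RefSeq annotation of GRCr8, 16 of the 42 listed genes overlap another protein-coding gene, and 7 of the 14 called with CTD are among them (Mcph1, Fancc, Fancd2, Xrcc3, Topbp1, Msh6 and Clspn). The kit kept the strand, but the strand setting of the counting is not given in the sources used here, so the values of these 7 are uncertain to that extent.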

How the data were processed

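The authors prepared stranded total RNA libraries from liver, trimmed the adapters, and used STAR 2.5.2b with the assembly Rnor_5.0 for mapping and counting. The deposited table holds whole counts that are not normalized, for 31 rats. A second deposited table holds a signal, which equals each count over its library's DESeq2 size factor and was checked but not tested. Of the 42 listed genes, rows were taken by symbol. Counts were normalized with TMM and tested with edgeR 4.0.16 (R 4.3.3, quasi-likelihood, 1 model of 7 groups, a minimum sum of 2 counts per gene), with Benjamini-Hochberg adjustment over 19904 genes and a threshold of 0.05. The SE is the absolute LFC over the square root of F, and intervals are LFC ± 1.96 SE. CPM use the TMM library sizes. The floor for 0 counts is 3 counts over the group and covers counting error only.

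The members, role groups and other gene lists were chosen with earlier results of these data known. Values for every rat are given for members the study names, the 3 smallest p in each treatment, members called in 2 or more treatments and the largest change of each role with CTD. Alternatives were DESeq2 1.42.0 and its size factors, filterByExpr, no filter, only the groups compared, a replicate block, thinned counts and each rat left out. Counts were simulated with the library sizes of all rats and a spread trend fitted over the 7 groups, not over CTD and control alone. For CTD against control, 88.0% of genes changed by an LFC of 1 and 98.0% of those changed by 2 were recovered among 19323 genes. Only genes with higher counts were changed, so these rates do not cover scarce members such as Exo1, Clspn and Brip1. A rat set apart in many genes at once, such as CTD rat 1, was not simulated. Replicate numbers name the rats within each group, and the sources used here give no pairing across groups. The result of a further gene is not reported here.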

Additional observations from a re-analysis of the deposited data

Results flagged for a closer look

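Among the 16 members given rat by rat, 95 combinations of gene and group with 4 to 10 rats were examined for a rat far from the rest by Dixon's criterion, and 4 were found, where chance gives about 1 in 20. H2afx in THI rat 1 measured 6.74 CPM with the nearest rat at 4.67 CPM. H2afx in THI + IMZ rat 4 measured 14 CPM with the nearest at 8.61 CPM. Rad51b in THI + CTD rat 1 measured 0.747 CPM with the nearest at 0.362 CPM. Bard1 in IMZ rat 3 measured 1.42 CPM with the nearest at 0.714 CPM. The CTD group, with 3 rats, was too small for this criterion.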

How the results depend on the processing

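None of the 26 calls of members against control changed sign under any of the 38 alternatives. The count of 14 with CTD became 15 (14 higher and 1 lower) with DESeq2, with filterByExpr, without a filter and with thinned counts, 12 with only the groups compared and 13 with the replicate block. Leaving out each rat gave 7 to 16 for CTD, 2 to 9 for THI + CTD, 0 to 5 for IMZ + CTD, 0 to 2 for THI + IMZ, 1 to 15 for CTD against THI, 0 to 6 for CTD against IMZ, and 0 to 1 for THI + CTD against its sum. DESeq2 gave 1 for IMZ, 2 for THI + IMZ, 6 for IMZ + CTD, 16 for CTD against THI and 6 for CTD against IMZ. With only the groups compared, THI + IMZ had 0, CTD against THI 6 and CTD against IMZ 0. A replicate block left 1 call with THI + CTD, 0 with IMZ + CTD and 0 with THI + IMZ, and 14 of the 26 calls in all. The sources used here give no pairing of the rats. Correlations of same-numbered rats ran from -0.166 to 0.334, with no reference to compare them with, and a factor shared by them was not tested. Depth limits Exo1, Clspn, Xrcc3, Rad54b, Rad51b and Brip1, with medians of 1 to 17 counts per library.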
